A study of Xenopus laevis with 46 samples.

Results

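RNA captured by a label for new synthesis was compared between the vegetal pole (VP) and the animal pole (AP) of wild type Xenopus laevis blastulae at 9 hours post fertilisation (hpf). Each embryo carried 5-ethynyl uridine (EU), a uridine analog injected at the 1-cell stage that is built into RNA during synthesis, so all groups share this treatment. The 2 regions were cut from embryos at 5, 6, 7, 8 and 9 hpf, and EU-labelled RNA was captured on beads and sequenced after removal of ribosomal RNA. The comparison uses the 10 libraries taken at 9 hpf, of 46 in the series, chosen by their labels alone. Experiment 1 gave 3 AP and 3 VP libraries, 1 per clutch. Experiment 2 gave 2 AP and 2 VP libraries, which are technical replicates of 1 further clutch. Values are normalized read counts, rounded to whole numbers by the authors, with no correction for gene length.

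In Xenopus the animal cells form ectoderm, and the vegetal cells form endoderm and send Nodal signals that induce mesoderm in the belt between them. Vegetal cells inherit localized maternal RNAs, among them that of the T-box factor VegT, which switches on Nodal ligands and endoderm transcription factors of the Mix, Sox17 and GATA families. Germ plasm, the cytoplasm that marks future germ cells, also lies at the vegetal pole. Most genes of this allotetraploid frog exist as an L and an S copy (homeologs), and Mix, Nodal and Sox17 genes also lie in tandem. The sources used here do not say how reads shared by near-identical copies were assigned, so values of single copies are uncertain.

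At 9 hpf the library totals lay between 2175407 and 3063366 for experiment 1 and between 3077580 and 3273514 for experiment 2. Genes listed above 0 numbered 17494, 15202 and 12957 in AP and 14824, 12481 and 9245 in VP, and 15051, 15443, 18109 and 17310 in the AP and VP libraries of experiment 2. The 3 against 3 difference gave p = 0.2 by an exact two-sided permutation test, whose smallest possible p is 0.1, and the adjusted p over the 4 such tests run was at most 0.429. In 3 libraries of experiment 2, 77.7% to 78.7% of values from 1 to 40 fell on multiples of a step of 7.9 (AP replicate 5), 2.3 (VP replicate 4) or 4.6 (VP replicate 5), so small values there may be single reads. In AP replicate 4 the best step held 71.7%, and no step is given for it. Each step was the best of a scan, and a small step takes in more whole numbers by itself. No such step was found in the 9 hpf libraries of experiment 1, whose depth in reads is unknown. Across the 19896 genes tested, log2 values correlated between clutches of a region at r = 0.48 to 0.56 (genes are not independent replicates). The technical replicates of experiment 2 correlated at r = 0.64 in AP and 0.68 in VP, so libraries of 1 clutch also differed.

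The dissection was checked against marker genes. The 17 vegetal endoderm markers summed to 15291 to 38815 in VP and to 773 to 3234 in AP of experiment 1. In experiment 2 they summed to 57615 to 59362 in VP and to 903 to 1300 in AP. The 18 animal ectoderm markers summed to 7951, 25764 and 35976 in the AP libraries, in ascending order, against 6651 to 8084 in VP. The lowest AP sum is that of replicate 1, which lies inside the VP range. In experiment 2 the ectoderm sums were 31331 to 36136 in AP and 11966 to 13617 in VP. The 16 markers of marginal zone mesoderm, the belt that a dissection of either pole could include, summed to 6727 to 15702 in VP and to 137 to 1888 in AP. In experiment 2 they summed to 20089 to 21729 and to 376 to 402. In AP 8 of these 16 were listed at 0 in every experiment 1 library, tbxt.L among them. In VP 4 were, the L and S copies of fgf3 and fgf4, and in experiment 2 only fgf3.L was. Among the 16, eomes is also in the endoderm list used below, and gsc and chrd.1 are in the organizer list. A large part of the VP sums came from eomes, with 4570, 1519 and 1850 for eomes.L and 4594, 2139 and 1454 for eomes.S. VP thus held transcripts of several of these markers, some shared with other lists, beside the endodermal ones. The part that marginal cells take in any VP value was not tested. In such bulk samples, more cells of a type and more RNA per cell cannot be told apart.

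Of 19896 genes tested, 49 were called higher in VP (0.246%) and 26 were called lower (0.131%). Called means an adjusted p under 0.05 in a limma model that shares 1 estimate of spread over all 30 libraries of experiment 1. At an unadjusted p under 0.05 there were 1431 genes (7.19%). The 49 hold genes of endoderm, of Nodal signalling, of the organizer and of germ plasm, and the 26 hold a keratin and E-cadherin. The called genes were mostly listed at 0 on one side: 32 of the 49 in all 3 AP libraries, and all 26 of the lower ones in all 3 VP libraries. Of all tested genes, 1740 and 3698 were. A gene at 0 in most of the 10 groups gets a small estimate of spread, so this model favours such genes. At 6 hpf 34 of the 49 and 25 of the 26 read 0 in all 6 libraries, and the share over all tested genes is not given here. The adjusted p of such genes may be too small. The VP means of the 49 ran from 63.3 to 6873, with a median of 489.3. The AP means of the 26 ran from 29.3 to 390.7, with a median of 75.5. VP replicate 3, which had the fewest genes above 0, is among the libraries at 0 for the lower calls. Over all tested genes, 315 were at 0 in all 3 VP libraries and above 0 in all 3 AP ones, and 60 showed the reverse. The median log2 fold change of all tested genes was -0.53, so the average gene was placed slightly lower in VP.

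These counts rest on single libraries. Without replicate 1, 2 or 3 of all groups they were 2 higher and 4 lower, 27 and 11, or 1 and 0. Of the 49 higher calls these runs kept 2, 15 and 1, and of the 26 lower calls each kept 0. In these runs 50, 54 and 61 of the 75 called genes still passed the filter. Without AP replicate 2 the counts were 24 higher and 0 lower, without AP replicate 3 they were 12 and 4, and without VP replicate 1 they were 29 and 5. Without VP replicate 3 they were 68 and 17. These 4 runs, in the order given, kept 17, 11, 24 and 38 of the 49 and 0, 2, 3 and 11 of the 26. With only the 6 libraries compared in the model 1 gene was higher and 0 were lower. Every called gene that the naming rule gave and that is described here lost its call under at least 2 alternatives, and irx2.L and sowahb.S lost it under 13.

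The clutch of experiment 2 took no part in those calls. Of the 49 genes called higher, 48 were also higher in VP there (the exception was Xelaev18037926m), and for 46 both VP technical replicates exceeded both AP ones (19% of all tested genes do so). Of the 26 called lower, 19 were lower in VP there, 6 were higher and 1 was listed at 0 in both regions. For 12 of the 26 the technical replicates did not overlap, against 15.6% of all tested genes. Over all tested genes the VP mean was the higher in 48.1% and the lower in 43.7%. With the mean of each pair of technical replicates taken as clutch 4, 44 of the 49 and 12 of the 26 kept all 4 VP values on one side of all 4 AP values. The same holds for 2.05% of all tested genes with VP higher and for 1.76% with VP lower. These shares are no test of the calls, which were made from the experiment 1 values. In those values 47 of the 49 and all 26 already did not overlap, so only clutch 4 is new. This clutch thus sided with the higher calls nearly throughout and with the lower calls in part.

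**Figure D1:**
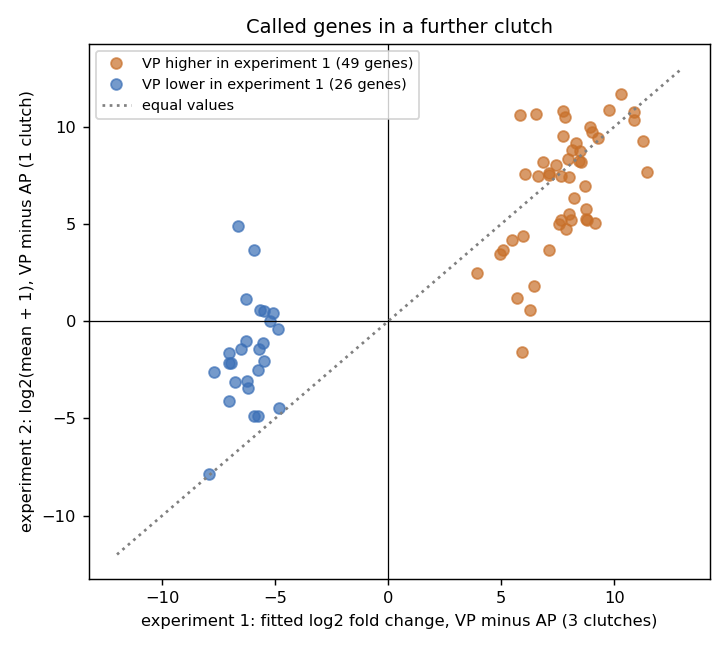
Each point is 1 of the 75 called genes. The x axis is the fitted log2 fold change of experiment 1, VP minus AP, and the y axis is the difference of log2(mean + 1) in the 1 clutch of experiment 2. Of the 49 genes called higher (orange), 48 lie above 0 on the y axis, and of the 26 called lower (blue), 19 lie below it.

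The called transcripts of the endoderm network were high in VP and at or near 0 in AP. The Mix-type homeobox gene mixer.S had 4257, 1167 and 2562 in the 3 VP libraries and 1, 0 and 0 in AP, and 6562 and 6209 against 0 and 8 in experiment 2. The VP values reached from 1167 to 6562 and every AP value was at or near 0 (VP minus AP 10.857 ± 2.201 (SE) in log2, adjusted p = 0.00283). For gata6.S, which encodes a zinc finger factor of endoderm, VP read 592, 111 and 376 and all 3 AP libraries read 0 (adjusted p = 0.00251), with 1342 and 1402 against 0 and 32 in experiment 2. Its relative gata4.S had 534, 109 and 202 in VP, then 1486 and 1382 in the further clutch, and was listed at 0 in all 5 AP libraries (adjusted p = 0.00635). VP replicate 2 was the lowest of the VP libraries for both of these genes. The third family member gata5.S had 42, 71 and 96 in VP, then 161 and 210 in experiment 2, against 0 in all 5 AP libraries (adjusted p = 0.00694). The gene xenf.L had 1539, 890 and 1423 in VP, then 3429 and 3040 in experiment 2, and was also at 0 in all 5 AP libraries (adjusted p = 0.000898). For hhex.L, a homeobox gene of anterior endoderm, the VP values were 532, 76 and 403 against 0 in AP (adjusted p = 0.00322), and 1025 and 652 against 0 and 8 in the further clutch. The L copies of mixer and the GATA genes were not called. In experiment 1 VP and AP read 187, 72 and 0 against 0, 49 and 0 for gata4.L (adjusted p = 0.799). For gata5.L VP read 255, 0 and 126 against 0 in AP (adjusted p = 0.103). For gata6.L, which did not pass the filter, VP read 357, 0 and 98. For mixer.L VP read 8019, 2938 and 4144 against 151, 225 and 40 (adjusted p = 0.562). In experiment 2 VP was the higher for each.

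The 6 called genes, mixer.S, gata6.S, gata4.S, gata5.S, xenf.L and hhex.L, belong to an endoderm list of 49 measured copies. Of these copies 37 passed the filter on low values, and 0.246% of all tested genes were called higher. The median fitted log2 fold change of the 37 was 4.63, and 22 of them kept all 4 VP clutches above all 4 AP clutches, as 2.05% of all tested genes did. Members that passed the filter because of their VP values had to differ, so this count describes the list and does not test it. Of the 49 copies, 11 were listed at 0 in all 5 AP libraries and 3 in all 5 VP ones, these 3 being at 0 in all 10 libraries.

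Several central endoderm genes separated fully but missed the threshold. The homeobox gene mix1.L, an early responder to VegT and Nodal signals, had 6200, 3143 and 3800 in VP against 18, 321 and 0 in AP, and 11169 and 11442 against 130 and 55 in experiment 2. Its 4 VP clutches all lay above its 4 AP clutches (VP minus AP 7.84 ± 2.38 (SE) in log2, adjusted p = 0.142). The homeolog mix1.S behaved alike, with 7601, 2994 and 5006 in VP against 162, 484 and 0 in AP (adjusted p = 0.324). The forkhead gene foxa4.L, expressed in dorsal mesendoderm, had 2880, 1667 and 2115 against 10, 171 and 0, and 4880 and 3749 against 53 and 8 in the further clutch (adjusted p = 0.104). For these genes the AP values spread from 0 upwards, and the SE near 2 on the log2 scale reflects the spread shared over all times.

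The Sox17 genes, which encode HMG-box factors that fix endodermal fate, differed between copies in how much AP signal they had. The copy sox17a.L had 2208, 1159 and 2080 in VP against 51, 314 and 192 in AP, and 3501 and 4020 against 18 and 79 in experiment 2 (adjusted p = 0.822). Its neighbour sox17b.1.L had 2565, 1221 and 2773 in VP against 300, 1311 and 1019 in AP, and 5021 and 5129 against 836 and 602 (VP minus AP 1.48 ± 2.31 (SE) in log2, adjusted p = 0.965). The AP and VP values of sox17b.1.L overlapped in experiment 1, and AP values reached 1311. The homeolog sox17b.1.S had 3472, 920 and 2231 against 73, 415 and 345, without overlap (adjusted p = 0.847).

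**Figure D2:**
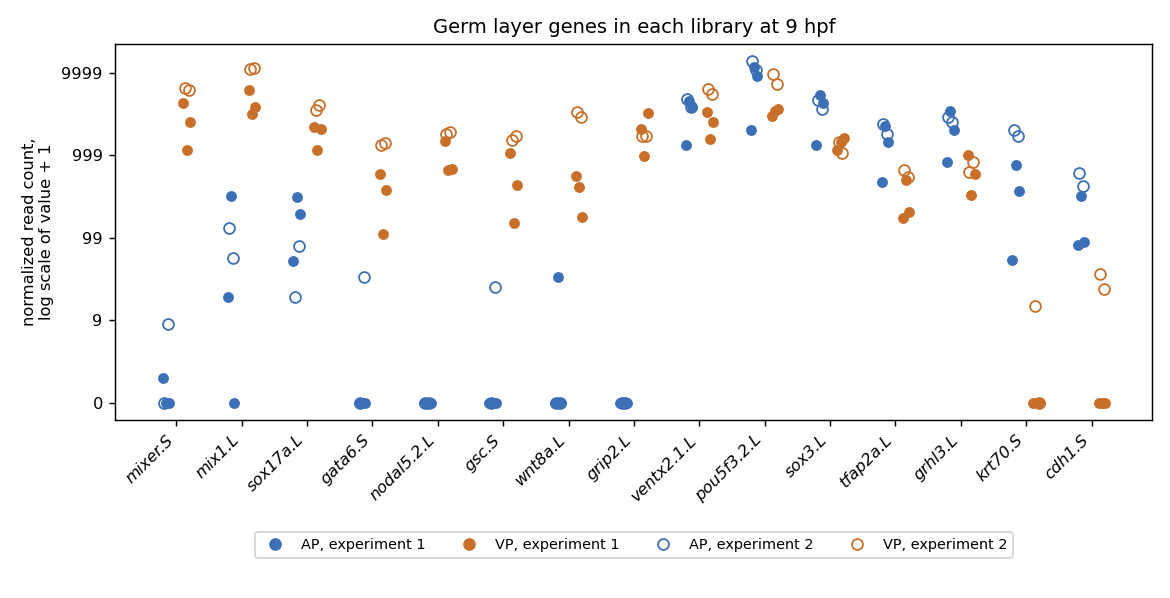
Normalized read counts of 15 genes at 9 hpf on a log axis of the value plus 1, with AP in blue and VP in orange. Filled circles are the 3 clutches of experiment 1 and open circles the technical replicates of experiment 2. From mixer.S to grip2.L the VP points lie above the AP points, ventx2.1.L and pou5f3.2.L overlap, and krt70.S and cdh1.S are listed at 0 in all 3 VP libraries of experiment 1.

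Called Nodal ligand genes were transcribed in VP and listed at 0 in AP. The ligand nodal5.2.L had 1495, 654 and 680 in VP, then 1827 and 1910 in experiment 2, and was listed at 0 in all 5 AP libraries (adjusted p = 0.00787). The ligand nodal6.L had 558, 318 and 734 and 911 and 785, and again 0 in all 5 AP libraries (adjusted p = 0.0225). These 2 were the called members of a list of 46 copies of ligands, co-receptors, inhibitors and Smad factors. Of these copies 40 were tested, and 0.246% of all tested genes were called higher. Other ligands pointed the same way and missed the threshold. For nodal1.L the values were 629, 401 and 970 in VP against 0, 70 and 0 in AP, with 1265 and 985 against 0 and 0 in the further clutch (adjusted p = 0.0645). For nodal.L they were 253, 34 and 774 against 5, 0 and 0 (adjusted p = 0.0742). For either gene all 4 VP clutches lay above all 4 AP clutches. By contrast nodal5.L had 441, 238 and 0 in VP, with replicate 3 at 0, and 452 and 433 in experiment 2 (adjusted p = 0.25). The feedback inhibitor lefty.L, named after its values were seen, had 926, 855 and 1032 in VP against 4, 13 and 82 in AP (adjusted p = 0.402). The median fitted log2 fold change of the 40 was 0.93, and 10 kept all 4 VP clutches above AP, against 2.05% of all tested genes. Of the 46 copies, 12 were listed at 0 in all 5 AP libraries, and members that passed the filter through their VP values had to differ.

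Genes of the dorsal organizer, the signalling centre that patterns the body axis, were found on the VP side as well. VP values of gsc.S, which encodes a homeodomain protein of the organizer, were 1078, 150 and 437 against 0 in all 3 AP libraries, and 1538 and 1721 against 0 and 24 in experiment 2 (adjusted p = 0.0115). Its homeolog gsc.L had 777, 209 and 919 against 23, 0 and 0 and missed the threshold (VP minus AP 7.53 ± 2.14 (SE) in log2, adjusted p = 0.0911). VP values of frzb.S, for a Wnt inhibitor released from cells, were 1017, 179 and 220 against 0 in AP, and 955 and 823 against 4 and 0 (adjusted p = 0.00114). VP replicate 1 had the highest value of experiment 1 for gsc.S and frzb.S and replicate 2 the lowest. The secreted kinase gene pkdcc.2.L had 352, 187 and 120 in VP, then 203 and 151 in experiment 2, with 0 in all 5 AP libraries (adjusted p = 0.0134). With hhex.L these were the 4 called members of 49 measured copies, 37 of them tested, whose median log2 fold change was 4.51. Over all tested genes 0.246% were called higher. Of the 49 copies, 10 were listed at 0 in all 5 AP libraries. Members that passed the filter through their VP values had to differ, so these numbers describe the list and do not test it.

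Other organizer genes varied between VP clutches. The BMP antagonist gene chrd.1.S had 2112, 906 and 506 in VP against 32, 398 and 36 in AP, and 3088 and 2793 against 6 and 0 in experiment 2, without overlap (adjusted p = 0.807). Its homeolog chrd.1.L had 857, 996 and 0 in VP, with replicate 3 at 0, and 1076 and 980 in the further clutch (adjusted p = 0.508). The head inducer gene cer1.S had 173, 0 and 104 in VP, then 1009 and 1092 in experiment 2 (adjusted p = 0.36). The VP clutch of experiment 2 had more cer1.S than any of the 3 clutches of experiment 1. The homeobox gene otx2.L was listed at 785, 0 and 0 in VP, 1055 and 1037 in experiment 2 and 0 in all 5 AP libraries, and it did not pass the filter. The early dorsal homeobox gene sia2.S, a target of maternal Wnt signalling, had 152, 135 and 212 in VP, then 406 and 345 in experiment 2 against 0 in all AP libraries (adjusted p = 0.0772). The BMP antagonist gene noggin overlapped between regions, with 87, 15 and 0 in VP against 0, 80 and 0 in AP for nog.L (adjusted p = 0.922), and 199 and 246 against 31 and 0 in experiment 2.

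Mesodermal genes were more uneven. The bHLH gene mespb.S had 197, 153 and 88 in VP, then 126 and 233 in experiment 2 (adjusted p = 0.00798). It was listed at 0 in all 5 AP libraries and was the 1 called member of 58 copies, of which 32 were tested. Of all tested genes 0.246% were called higher. The T-box gene eomes.S had 4594, 2139 and 1454 in VP against 95, 554 and 89 in AP, and 5134 and 4488 against 206 and 177, without overlap (VP minus AP 3.85 ± 2.43 (SE) in log2, adjusted p = 0.809). The zinc finger gene snai1.S had 3871, 1769 and 2106 against 39, 296 and 71, again without overlap (adjusted p = 0.707). The ligand gene wnt8a.L, a ventral and lateral mesoderm signal, had 564, 414 and 175 in VP against 0, 32 and 0 in AP, and 3335 and 2944 against 0 and 0 (adjusted p = 0.117). The wnt8a.L value of the further clutch was several times that of any other VP clutch. Brachyury, the T-box marker of the whole mesodermal belt, was not called: tbxt.S had 257, 202 and 110 in VP against 44, 113 and 0 in AP (adjusted p = 0.841), and 769 and 628 against 0 and 32 in experiment 2. Its copy tbxt.L had 88, 130 and 0 in VP, then 16 and 27 in experiment 2, with 0 in AP. Of the 58 copies, 24 were listed at 0 in all 5 AP libraries and 3 in all 10 libraries. In the median tested member the fitted log2 fold change was 2.47. Members that passed the filter through their VP values had to differ, so this median does not test the list.

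Among the signalling lists, 1 FGF list member was called, flrt3.S, which encodes a membrane protein that modulates FGF signalling and adhesion. It had 1671, 687 and 638 in VP against 14, 0 and 0 in AP, and 1461 and 1418 against 0 and 8 in experiment 2 (VP minus AP 8.52 ± 2.00 (SE) in log2, adjusted p = 0.0134). The FGF list held 45 copies, 39 tested, with a median log2 fold change of 0.18. The Wnt list held 60 copies, 42 tested, with a median of 0.73 and frzb.S as its called member. Of all tested genes 0.246% were called higher, and their median was -0.53. Of the BMP list, 51 copies with 38 tested and a median of 0.49, 0 were called in the limma model of 30 libraries. Of the 38, 5 had an unadjusted p under 0.05. A limma model of 4 clutches, described last, called 4 of the 38 higher and 1 lower, against 0.864% and 0.452% of all tested genes.

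The ventx genes, homeobox targets of BMP signals that specify ventral fate, were made in both regions. The copy ventx2.1.L had 3313, 1592 and 2521 in VP against 1329, 4491 and 3803 in AP, and 6383 and 5524 against 4821 and 3854 in experiment 2 (VP minus AP -0.26 ± 2.40 (SE) in log2, adjusted p = 1). The copy ventx2.2.S had 3400, 2627 and 3180 in VP against 1216, 5653 and 2625 in AP (adjusted p = 1). The regions overlapped in experiment 1, AP replicate 1 was the lowest AP library, and VP was the higher region in experiment 2. In ventx2.1.L and ventx2.2.S the sign of the fitted change turned when single libraries were left out. A different member, ventx3.2.L, named after its values were seen, had 562, 678 and 1634 in VP against 0, 132 and 22 in AP, and 3353 and 3071 against 7 and 158, without overlap (VP minus AP 5.88 ± 2.15 (SE) in log2, adjusted p = 0.354). The ligand gene bmp4.L had 165, 120 and 128 in VP against 30, 147 and 297 in AP, overlapping (adjusted p = 1). The ligand copy bmp7.1.S was listed at 0 in all 10 libraries.

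**Figure D3:**
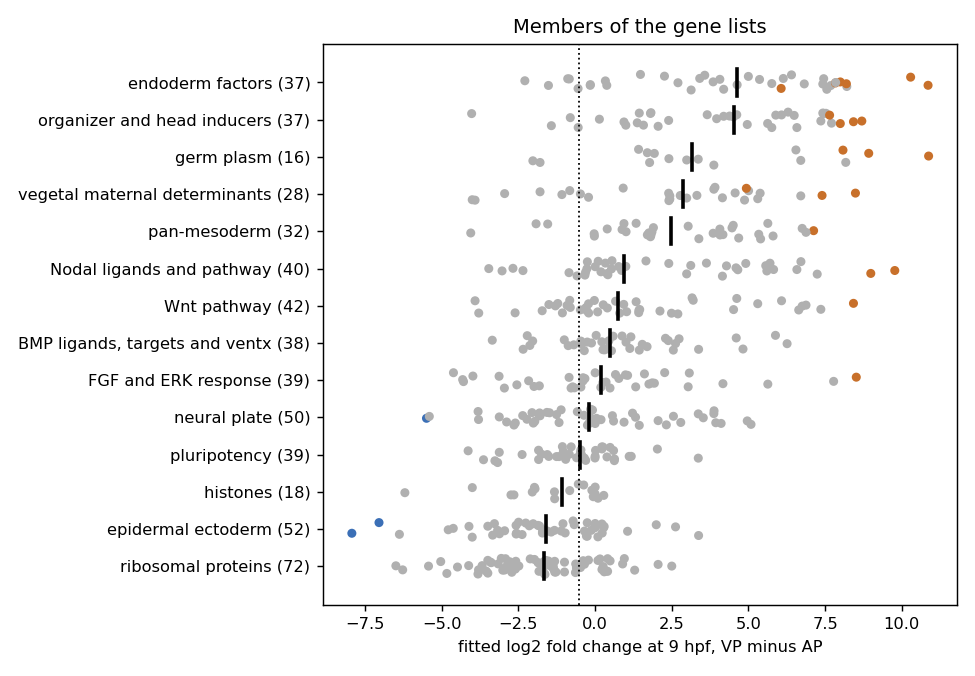
Each point is 1 tested copy of a gene list at its fitted log2 fold change at 9 hpf (VP minus AP, 3 clutches against 3), with the number of tested copies in brackets. Orange and blue mark copies called higher and lower in VP, black bars are list medians, and the dotted line is the median of all 19896 genes, -0.53. Medians run from 4.63 for endoderm factors to -1.65 for ribosomal proteins.

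RNAs known to be maternal and localized were a further group with high VP values. Several were already high in VP at 5 hpf, with unlike courses later. For hwa.L VP read 2891, 3440 and 3014 at 5 hpf and 1243, 937 and 2209 at 9 hpf. For vegt.S it read 1388, 750 and 1291 at 5 hpf and 4011, 2143 and 1341 at 9 hpf. Whether such values are newly made RNA or unlabelled maternal RNA carried through the capture was not tested. VP values of grip2.L, whose RNA lies in germ plasm, were 2052, 986 and 3264 in experiment 1 and 1729 and 1695 in experiment 2, with 0 in all 5 AP libraries (adjusted p = 0.000671). VP values of pgat.L, another germ plasm RNA, were 952, 644 and 1297 against 0, 6 and 0 in AP, and 1093 and 901 against 0 and 0 in experiment 2 (adjusted p = 0.0134). The RNA helicase gene ddx25.L, also of germ plasm, had 957, 1144 and 742 in VP against 40, 0 and 0 in AP (VP minus AP 8.08 ± 1.96 (SE) in log2, adjusted p = 0.0199). The AP libraries of experiment 1 were thus at or near 0 for all 3 genes, apart from 40 for ddx25.L in replicate 1. Of the RNA-binding protein genes, dazl.L had 1021, 227 and 102 in VP and 0 in all 5 AP libraries and missed the threshold (adjusted p = 0.0995), as did nanos1.L with 359, 185 and 805 against 0, 32 and 1 (adjusted p = 0.275). The germ plasm list held 18 copies, 16 tested, with 3 called and a median log2 fold change of 3.17. Over all tested genes 0.246% were called higher. Here too, members that passed the filter through their VP values had to differ.

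Of the maternal determinants, vegt.S, a copy of the gene for VegT, had 4011, 2143 and 1341 in VP against 292, 693 and 1 in AP, and 3558 and 3078 against 254 and 361 in experiment 2 (VP minus AP 4.93 ± 1.24 (SE) in log2, adjusted p = 0.0269). All 4 VP clutches lay above all 4 AP clutches, whose replicate numbers are not known to pair. The call was lost in 11 of 20 alternatives, among them no filter on low values, and its adjusted p ran from 0.000657 to 0.904. Its homeolog vegt.L had 4554, 1722 and 1759 against 129, 290 and 107 and 3367 and 2913 against 203 and 96, also without overlap, and missed the threshold (VP minus AP 3.91 ± 1.34 (SE) in log2, adjusted p = 0.276). The gene hwa.L encodes Huluwa, a membrane protein needed for dorsal Wnt signalling, and had 1243, 937 and 2209 in VP against 66, 7 and 0 in AP (VP minus AP 7.40 ± 1.70 (SE) in log2, adjusted p = 0.0116). The proprotein convertase gene pcsk6.L had 640, 450 and 1120 in VP against 0, 6 and 0 in AP (VP minus AP 8.49 ± 2.21 (SE) in log2, adjusted p = 0.0416). Its call was lost in 12 of 20 alternatives, with adjusted p from 0.0012 to 0.653. The RNA-binding protein gene bicc1.L had 869, 1217 and 1430 against 164, 115 and 246, without overlap (VP minus AP 2.78 ± 1.18 (SE) in log2, adjusted p = 0.508). The list held 32 copies, 28 tested, with vegt.S, hwa.L and pcsk6.L called and a median of 2.88. Of all tested genes 0.246% were called higher, and their median was -0.53. In experiment 1, 17 of the 28 lay higher in VP without overlap and 2 lay lower. Over all tested genes these shares were 3.56% and 5.7%. Members that passed the filter through their VP values had to differ, so these numbers do not test the list.

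Of the called genes in no list, wnk2.L and atrx.L are named after their values were seen, because neither was listed at 0 in any AP library. The called gene plk3.L shared this, with 61, 237 and 1 in AP and 2425, 1413 and 1996 in VP. The kinase gene wnk2.L had 2368, 3428 and 3769 in VP against 133, 211 and 26 in AP, and 1950 and 2338 against 203 and 139 in experiment 2 (VP minus AP 5.095 ± 0.926 (SE) in log2, adjusted p = 0.000671). The gene atrx.L, for a chromatin remodeller, had 2874, 2415 and 2640 in VP against 153, 206 and 169 in AP, and 1659 and 1625 against 160 and 424 (VP minus AP 3.91 ± 0.96 (SE) in log2, adjusted p = 0.0225). For wnk2.L and atrx.L every VP value exceeded every AP value, and the VP values of experiment 2 were lower than those of experiment 1.

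Of the 49 genes, 30 were in none of the gene lists, and 15 carry only a locus or gene model ID. The 2 with the largest fitted change were LOC100492708, with 4386, 2282 and 4286 in VP against 1, 0 and 0 in AP (VP minus AP 11.44 ± 2.33 (SE) in log2, adjusted p = 0.00299), and LOC108705533, with 8380, 4906 and 7333 and 0, 19 and 0 (VP minus AP 11.27 ± 2.43 (SE) in log2, adjusted p = 0.00667). In experiment 2 they had 6645 and 5522 against 2 and 56 and 9064 and 9257 against 20 and 8. No VP value of either locus was below 2282. The rule for naming genes also gave LOC108705994, with 1389, 430 and 384 in VP and 0 in all 5 AP libraries (adjusted p = 0.000671), and LOC108702204, with 1189, 410 and 364 against 0 in AP (adjusted p = 0.00753). The protocadherin genes pcdh8.2.S and pcdh8.2.L, for an adhesion molecule of gastrulating mesoderm, were the 2 called genes whose groups overlapped. The copy pcdh8.2.S had 1740, 467 and 0 in VP, 0 in AP and 1721 and 1510 in experiment 2 (adjusted p = 0.0134). VP replicate 3 was listed at 0 for both copies, while every other VP library was above 100.

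Tested homeologs leaned the same way. Of 34 called VP genes with an L or S suffix, 24 had a partner in the data, and 19 had a tested one. The fitted change was above 0 in all 19 tested partners, against 6921 of all 19896 tested genes. Reads may be shared between near-identical copies, so partners are not independent of the called genes. The 2 partners that were called are the copies of pcdh8.2. In the order of genes of the v10.1 assembly, whose build may differ from that of the table, nodal5.2.L and nodal6.L lie beside each other on chromosome 3L. They were the 1 such pair among the called VP genes, counting protein-coding neighbours with at most 1 gene between them.

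On the animal side the called genes were fewer. The keratin gene krt70.S, an epidermal marker, had 52, 756 and 364 in AP and 0 in all 3 VP libraries, and 2039 and 1735 against 14 and 0 in experiment 2 (adjusted p = 0.014). For cdh1.S, which encodes E-cadherin, AP read 81, 321 and 87 and VP read 0, and 606 and 421 against 35 and 23 (adjusted p = 0.0116). Both AP levels were higher in the further clutch than in any clutch of experiment 1, and VP was not at 0 there for cdh1.S. These 2 were the called members of an epidermal list of 78 copies, 52 of them tested, with a median log2 fold change of -1.60. Over all tested genes 0.131% were called lower and the median was -0.53. The 72 ribosomal protein copies had a median of -1.65, so a median as low as that of the epidermal list was not particular to it. Members that passed the filter through their AP values had to differ. The cofactor gene vgll4l.L had 55, 604 and 279 in AP against 0 in VP, and 522 and 604 against 43 and 140 in experiment 2 (adjusted p = 0.0162). The ankyrin repeat gene sowahb.S had 45, 201 and 247 in AP, then 186 and 242 against 63 and 32 in the further clutch (adjusted p = 0.0225). Its call was lost in 13 of 20 alternatives, with adjusted p from 0.00349 to 0.509. For both vgll4l.L and sowahb.S the further clutch lay on the same side.

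Other genes called lower did not keep their direction in the further clutch. The Iroquois homeobox gene irx2.L had 36, 21 and 113 in AP and 0 in VP (adjusted p = 0.0488). In experiment 2 it had 13 and 40 against 60 and 18. It was the 1 called member of the neural plate list (64 copies, 50 tested, median -0.19), and 0.131% of all tested genes were called lower. Its call was lost in 13 of 18 alternatives, with adjusted p from 0.0298 to 1. The call of LOC108710720 was lost in 8 of 18, with adjusted p from 0.000768 to 0.736. This locus had 24, 199 and 196 in AP and 0 in VP (adjusted p = 0.0116), and 2 and 0 against 21 and 96 in experiment 2. Loci LOC108699863 and LOC108698541 did keep it, with 93, 272 and 92 and 18, 242 and 278 in AP (adjusted p = 0.0116 and 0.00278) and 143 and 131 against 52 and 36 and 431 and 299 against 51 and 32 in the further clutch. Of the 26 genes, 23 were in no list and 16 carry only a locus or gene model ID.

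Apart from krt70.S and cdh1.S, no copy of the ectoderm markers among the named genes was called in the limma model. The grainyhead gene grhl3.L, an activator of epidermal genes, had 838, 3434 and 2016 in AP against 994, 328 and 588 in VP, and 2913 and 2504 against 623 and 826 in experiment 2 (VP minus AP -1.64 ± 2.42 (SE) in log2, adjusted p = 0.956). The AP-2 gene tfap2a.L had 475, 2265 and 1434 in AP against 172, 497 and 205 in VP, and 2393 and 1808 against 657 and 549 (VP minus AP -2.15 ± 2.39 (SE) in log2, adjusted p = 0.922). For both genes AP replicate 1 lay within the VP range, and the other AP clutches lay above all VP clutches. The forkhead gene foxi1.L, which acts in early ectoderm, had 619, 2060 and 655 in AP against 380, 231 and 216 in VP, and 544 and 961 against 301 and 137, without overlap (adjusted p = 0.941). Its homeolog foxi1.S had 42, 152 and 176 in AP against 1, 0 and 0 in VP, and 170 and 304 against 56 and 55 in experiment 2 (VP minus AP -6.38 ± 1.71 (SE) in log2, adjusted p = 0.0577). Over the alternatives its adjusted p ran from 0.00876 to 1, and it was called with no filter on low values. The copy tfap2a.S had 273, 1046 and 1149 in AP against 102, 41 and 72 in VP, without overlap in experiment 1, and 1473 and 1286 against 319 and 254 (adjusted p = 0.843). VP was thus at or near 0 for foxi1.S in experiment 1, and clearly above 0 for the other copies named here except tp63. Its relative foxi4.2.S overlapped between regions, with 1176, 4772 and 4813 in AP, 1590, 1166 and 921 in VP, and 4733 and 4365 against 3430 and 3172 in experiment 2 (adjusted p = 0.984). The epidermal gene tp63 was listed at 0 for both copies in all 6 libraries of experiment 1.

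Neural genes were mixed. The HMG-box gene sox3.L, a marker of early neural competence, had 1325, 5416 and 4320 in AP against 1144, 1446 and 1619 in VP, and 4650 and 3668 against 1435 and 1064 in experiment 2 (VP minus AP -1.18 ± 0.82 (SE) in log2, adjusted p = 0.841). The LIM homeobox gene lhx5.S had 123, 769 and 312 in AP against 25, 14 and 0 in VP, and 826 and 844 against 150 and 60, without overlap (VP minus AP -5.41 ± 2.23 (SE) in log2, adjusted p = 0.473). Thus lhx5.S did not overlap, and for sox3.L AP replicate 1 alone lay within the VP range. The zinc finger gene zic1.L had 76, 950 and 605 in AP against 482, 359 and 212 in VP, overlapping (adjusted p = 1), and foxd4l1.1.L had 193, 1337 and 241 and 345, 428 and 310 (adjusted p = 1). The sign of the fitted change of zic1.L and foxd4l1.1.L turned when values were scaled to a common total.

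Pluripotency genes were detected in both regions. The POU gene pou5f3.2.L, of the family related to mammalian Oct4, had 2041, 11667 and 9165 in AP against 3000, 3481 and 3612 in VP, and 13872 and 10875 against 9607 and 7375 in experiment 2 (VP minus AP -0.84 ± 0.97 (SE) in log2, adjusted p = 0.925). AP replicate 1 lay below all VP values of experiment 1 and the other AP clutches lay above them. The maternal paralog pou5f3.3.L had 400, 277 and 346 in AP against 956, 381 and 1222 in VP (adjusted p = 0.885). In AP it had been higher at 5 hpf, at 666, 1195 and 800, and whether it was newly made was not tested. The pluripotency list held 40 copies, 39 tested, with 0 called in the limma model of 30 libraries. Its median was -0.48, against -0.53 over all tested genes, and 3 had an unadjusted p under 0.05. A model of 4 clutches, described last, called 6 of the 39 lower in VP and 0 higher, against 0.452% and 0.864% of all tested genes. Calls of this model were not particular to this list. Of 52 epidermal copies it called 9 lower and 0 higher, and of 50 neural plate copies 3 lower and 2 higher. Of 37 endoderm copies it called 16 higher and 0 lower, and of 37 organizer copies 15 higher and 2 lower. Of the 39, 1 kept all 4 VP clutches below all 4 AP clutches, against 1.76% of all tested genes. AP replicate 1 was the lowest AP clutch in 84 of the 90 lower calls of that model, whose p-values are not given. For comparison, the 72 ribosomal protein copies had a median of -1.65 and the 18 histone copies -1.08. The limma model of 30 libraries called 0 in either list, and 5 and 4 copies had an unadjusted p under 0.05.

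The time course gives the background of these differences. At 5 hpf 29 of the 49 genes later called higher in VP read 0 in all 6 libraries, and so did 21 of the 26 called lower. The model favours genes at 0 in the other groups, 5 hpf included, so these counts are in part set by the calling. The share over all tested genes is not given here. Separation at 9 hpf likewise follows in part from the calls, which used those values. Non-overlapping groups with VP higher were found for 9, 10, 13 and 12 of the 49 at 5, 6, 7 and 8 hpf, and for 47 at 9 hpf. Over all tested genes the shares at these times were 3.16%, 2.5%, 3.04%, 1.59% and 3.56%. The 9 that were already apart at 5 hpf were atrx.L, ddx25.L, grip2.L, hwa.L, pcsk6.L, pgat.L, plk3.L, vegt.S and wnk2.L, of which 6 are in the lists of maternal RNAs. Of the 26 called lower, 0 had non-overlapping groups with AP higher at 5, 6 or 7 hpf and 1 had at 8 hpf, while all 26 had at 9 hpf. Over all tested genes those shares were 3.15%, 5.72%, 4.1%, 5.4% and 5.7%.

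In VP of experiment 1 mixer.S, nodal5.2.L and gata6.S rose after 6 hpf, while the germ plasm gene grip2.L was present at every time. The endoderm gene mix1.L had 112, 239 and 133 in VP at 7 hpf. For mixer.S VP read 0 in all clutches at 5 and 6 hpf. At 7 hpf it read 82, 25 and 0, at 8 hpf 921, 0 and 344, and then 4257, 1167 and 2562 at 9 hpf. For nodal5.2.L the 7 hpf VP values were 80, 141 and 211 and those of 8 hpf 774, 0 and 88, before 1495, 654 and 680 at 9 hpf. For gata6.S they were 0 in all 3 clutches at 7 hpf and 77, 0 and 0 at 8 hpf. VP replicate 2 at 8 hpf was at 0 for these 3 genes, and without it the counts at 9 hpf were 51 higher and 26 lower. By contrast grip2.L had 2667, 1965 and 1460 in VP at 5 hpf and 2052, 986 and 3264 at 9 hpf. On the animal side krt70.S had 15, 0 and 26 in AP at 7 hpf and 0, 325 and 45 at 8 hpf. It was at 0 in VP of experiment 1 at all 5 times. The technical replicates of VP at 7 hpf in experiment 2 differed widely. They read 1329 and 20 for grip2.L, 0 and 705 for mixer.S and 0 and 477 for gata6.S. Their mean at that time is thus of little use.

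**Figure D4:**
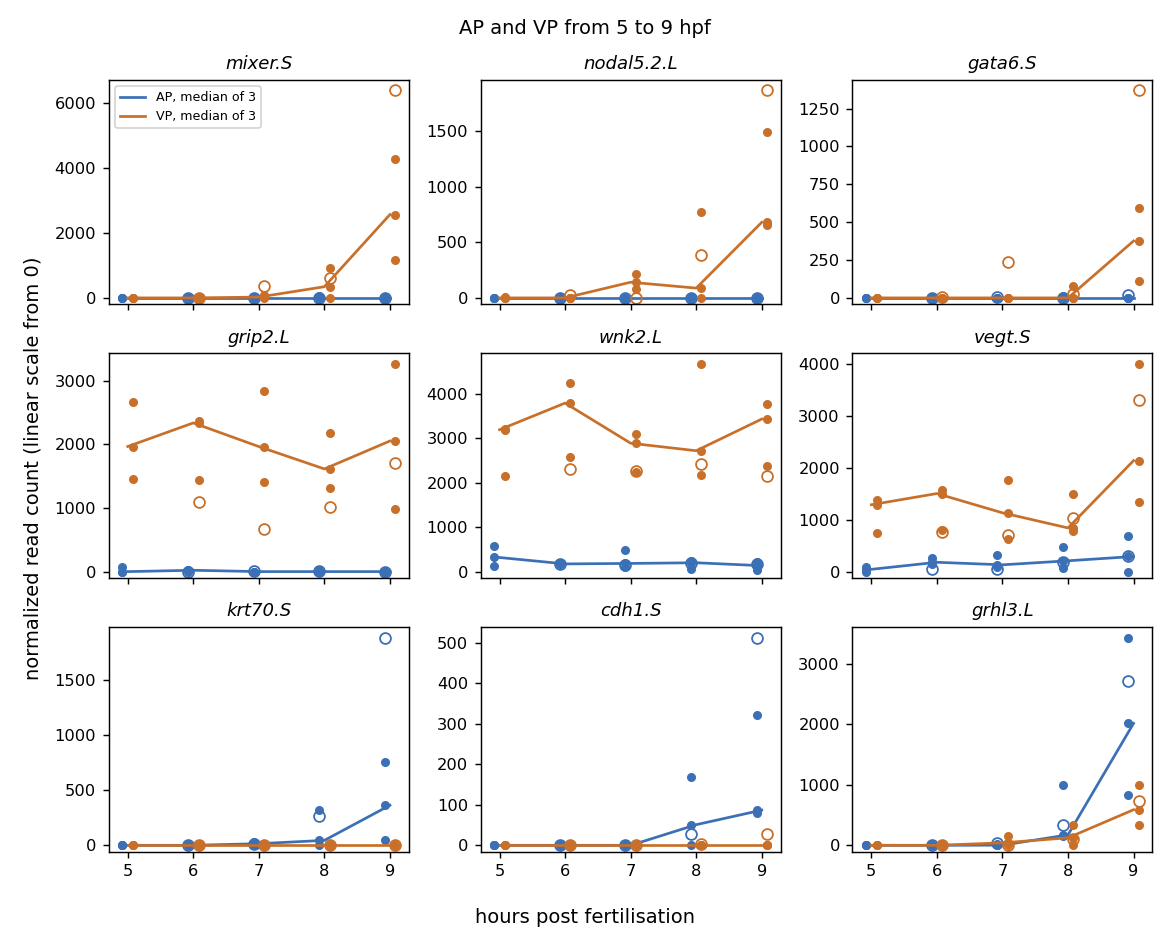
Normalized read counts of 9 genes from 5 to 9 hpf on linear axes that start at 0, with AP in blue and VP in orange. Filled circles are the 3 clutches of experiment 1, lines join their medians, and open circles are the mean of the technical replicates of experiment 2 (6 to 9 hpf). In VP mixer.S, nodal5.2.L and gata6.S are highest at 9 hpf, grip2.L and wnk2.L are present from 5 hpf on, and krt70.S and cdh1.S are highest in AP at 9 hpf.

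Whether the regional difference at 9 hpf differed from that at 5 hpf was tested in the same limma model. For 0 of 19896 genes did the difference pass the threshold (0%), and 1042 had an unadjusted p under 0.05 (5.24%). Without a filter on low values 18 genes passed, and without replicate 1 there was 1. For mixer.S the fitted difference of differences was 10.86 ± 3.11 (SE) on the log2 scale (adjusted p = 0.809), and for grip2.L it was 1.97 ± 2.82 (SE) (adjusted p = 0.999). The appearance of the endoderm genes between the 2 times is therefore given as values.

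A model of the 9 hpf libraries alone, with the further clutch as clutch 4, gave more calls: 172 higher (0.864%) and 90 lower (0.452%). It shares 40 of the 49 higher calls and 1 of the 26 lower ones, krt70.S. Of the 172, 152 had all 4 VP clutches above all 4 AP clutches, and of the 90 lower ones 24 had them below. Over all tested genes these shares were 2.05% and 1.76%. The calls were made from these same values, so this separation follows in part from the calls and does not test them. In 84 of these 90 genes AP replicate 1 was the lowest AP clutch, against 14.7% of all tested genes. The 172 include mixer.L, eomes.S, snai1.S, foxa4.L, sox17a.L, wnt8a.L, vegt.L and lefty.L. The 90 include tfap2a.L, grhl3.L, sox3.L, foxi1.L and lhx5.S. For most of these genes limma took the spread from the trend over all genes and barely from the gene itself, so its p-values are not given. With the replicate number as a block the counts were 13 and 0, with the experiment as a block they were 87 and 13, and 103 of the 172 and 17 of the 90 calls were kept without VP replicate 3. Without AP replicate 1, 104 and 53 were kept.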

How the data were processed

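The deposited table holds whole-number scores: read counts normalized with DESeq2 by the authors after Salmon 0.12.0 and rounded, per the submitters' processing notes. The sources used here give neither genome build nor annotation, and raw depth is unknown, which limits the precision of low values. No count model was therefore used. Rows with the same name were summed, genes were kept where 3 or more libraries reached 10, and log2(value + 1) was fitted with limma 3.58.1 in R 4.3.3 (10 groups of 3, trend and robust, Benjamini-Hochberg adjustment, threshold 0.05). Fold changes are on this log2(value + 1) scale. The added 1 shrinks changes of low genes, while a single 0 among higher values can enlarge a fitted change or turn its sign. For dkk1.L, with 56, 194 and 0 in VP against 24, 48 and 48 in AP, the fitted change was -0.81. Without VP replicate 3 it was 1.43. Technical replicates 4 and 5 were averaged as 1 clutch. The fit was run on simulated data with added changes of known size. There residuals were shuffled over all libraries, so groups had a like spread. The run therefore cannot show whether calls of genes at 0 in whole groups hold. Named genes are up to 8 called genes per direction by largest change, up to 4 called members per list, and a set of markers. Members and lists were chosen with earlier results of these data known. Alternatives covered filters, pseudocounts, scaling, library weights, blocks and omitted replicates. Sequences and promoter motifs were not analysed here, and some genes that the rule names are not reported here.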

Additional observations from a re-analysis of the deposited data

How the results depend on the processing

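The counts of 49 genes higher and 26 lower in VP depended on the model. They were 103 and 130 with no filter on low values, 25 and 3 with at least 10 in at least 6 libraries, 156 and 62 with log2(value + 10), and 1 and 0 with only the 9 hpf libraries. With these libraries also filtered on their own, 78 were higher, and 16 of the 49 and 0 of the 26 calls were kept. With the fourth clutch added 106 were higher, and 46 of the 49 and 13 of the 26 were kept. The 4 clutches alone gave 172 and 90, or 173 and 85 when filtered on them. Library weights gave 15 lower. The difference between 9 and 5 hpf gave 18 genes with no filter. Leaving out replicates gave 1 to 140 higher, 0 to 86 lower and 0 to 1 for the difference. The replicate block gave 61 and 33. In the 4 clutches alone the replicate block gave 13 and 0, and the experiment as a block gave 87 and 13. Without replicate 1 or 3 these 4 clutches gave 44 and 47 or 121 and 5, without AP replicate 1 they gave 108 higher, and without VP replicate 3 they gave 119 higher. In the 10 groups, 68 were higher without VP replicate 3 and 36 lower without AP replicate 1. Equal replicate numbers correlated across regions by 0.024 on average (0.028, 0.0088 and 0.034), and unequal ones by -0.034 to 0.0086. Such low values cannot settle whether equal numbers mark pairs, and the main model took no pairs. Signs turned for ventx2.1.S (0.047), zic1.L (0.07931) and foxd4l1.1.L (0.0178) at a common total, dkk1.L (0.07844) with log2(value + 10), foxd4l1.1.L (0.0452) with the fourth clutch or the 4 clutches alone, and zic1.L (0.10) with library weights. Without single replicates, signs turned within -0.75 to 1.07 for bmp4.L, -2.38 to 1.59 for dkk1.L, -0.67 to 0.73 for foxd4l1.1.L, -3.75 to 1.06 for foxd4l1.1.S, -1.17 to 3.49 for nog.L, -0.63 to 0.97 for nog.S, -1.41 to 0.20 for pou5f3.2.S, -0.0916 to 0.85 for pou5f3.3.S, -0.44 to 2.31 for ventx1.1.S, -1.04 to 0.36 for ventx2.1.L, -0.91 to 0.56 for ventx2.1.S, -0.99 to 0.042 for ventx2.2.L, -0.41 to 0.88 for ventx2.2.S, -1.46 to 0.63 for zic1.L and -4.12 to 0.59 for zic1.S. The cause was not tested. A common total moved the median of all genes from -0.53 to -0.43. Depth in reads is unknown in experiment 1, so values of 0 there may be low levels.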
